A study of Mus musculus with 16 samples.

Results

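Interferon-stimulated genes are the genes that cells switch on when an interferon reaches their surface. The set described here holds 45 such genes out of 22098 genes listed in at least 1 of 4 tables of mouse heart RNA-seq. Its members were picked by gene symbol with earlier results of these data known, so counts over the set describe it and test nothing. The set was read in 2 classes, 34 genes that answer mainly to type I interferon and 11 that answer strongly to interferon-gamma. All 45 genes had exactly 1 row in each of the 4 tables.

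The study sequenced total RNA from hearts in 16 libraries, 5 labelled NR TAC, 4 Vehicle TAC, 4 NR SHAM and 3 Vehicle SHAM. TAC, transverse aortic constriction, is an operation that narrows the aorta and loads the left ventricle, and sham animals are the operated controls without the constriction. The study's title is about raising NAD+, and NR is the usual short form of nicotinamide riboside, an NAD+ precursor. Strain, sex, age, dose and time after surgery are not given in the labels, and no label states that each library is a different animal. The p-values then cover the spread among the sequenced libraries, which may be technical. For each pair of groups the authors deposited the 2 group means of normalized counts, a fold change, a p-value and an adjusted p-value. No value per library was given, so the means carry no SD, and whether libraries of different groups overlap cannot be read from them. Depth per library is unknown.

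Cells detect viral or misplaced nucleic acids with receptors such as RIG-I, MDA5 and the toll-like receptors and then secrete interferons. Type I interferons bind the IFNAR receptor, and a complex that holds STAT2 and IRF9 then binds the interferon-stimulated response element (ISRE) near its target genes. Interferon-gamma binds the IFNGR receptor, and its signal reaches genes through the gamma-activated site (GAS). In the heart, macrophages, endothelial cells, fibroblasts and cardiomyocytes can all express such genes.

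The members' promoters were read for these elements. RefSeq start sites on GRCm38.p6 gave a window of 250 bases before to 50 bases after the start for 35 of the 45 members. No window was held for Ifi204, Iigp1, Rtp4, Mx2, Mx1, Usp18, Oas2, Zbp1, Ifi27 and Dhx58. Those 10 were not searched, and the promoter counts below cover the 35 with a window. The ISRE was searched in a strict form, GAAA followed by any NN and a second GAAA, and it stood on either strand in 20 of these 35 members (57.1%), against 1079 of 27025 genes (3.99%). The letters TTCNNNGAA, the GAS form, which reads the same on both strands, stood in 9 of 35 members (25.7%), against 9.55% of genes, and 11 members had neither. By class, the ISRE letters were found in 15 of 25 type I-like and 5 of 10 interferon-gamma-like members, and the GAS letters in 5 of 25 and 4 of 10. A match is a string of letters and not a measured binding site. The 160 bases before the start are printed for 8 members on which the results below turn or which show a clear form of each element, 5′ to 3′ on the gene's own strand, with the matching letters in capitals.
Ifit1 (chr19:34640729-34640888, plus strand): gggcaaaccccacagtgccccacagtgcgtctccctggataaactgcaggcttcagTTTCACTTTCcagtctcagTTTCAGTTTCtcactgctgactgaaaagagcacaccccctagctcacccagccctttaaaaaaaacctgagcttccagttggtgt
Ifit3 (chr19:34583369-34583528, plus strand): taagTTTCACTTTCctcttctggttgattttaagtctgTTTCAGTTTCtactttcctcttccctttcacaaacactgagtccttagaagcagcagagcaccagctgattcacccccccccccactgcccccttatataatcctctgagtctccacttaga
Isg15 (chr4:156200819-156200978, minus strand): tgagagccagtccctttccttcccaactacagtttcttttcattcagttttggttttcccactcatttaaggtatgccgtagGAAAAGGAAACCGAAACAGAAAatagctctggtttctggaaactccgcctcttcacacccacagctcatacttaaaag
Ifi207 (chr1:173741810-173741969, minus strand): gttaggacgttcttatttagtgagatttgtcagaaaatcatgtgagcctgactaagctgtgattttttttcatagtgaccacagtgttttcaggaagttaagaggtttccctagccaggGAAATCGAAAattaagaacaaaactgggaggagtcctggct
Ifi211 (chr1:173913047-173913206, minus strand): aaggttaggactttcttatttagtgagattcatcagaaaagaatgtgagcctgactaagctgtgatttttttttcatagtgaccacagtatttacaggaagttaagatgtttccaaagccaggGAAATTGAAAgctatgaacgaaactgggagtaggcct
Gbp2 (chr3:142620503-142620662, plus strand): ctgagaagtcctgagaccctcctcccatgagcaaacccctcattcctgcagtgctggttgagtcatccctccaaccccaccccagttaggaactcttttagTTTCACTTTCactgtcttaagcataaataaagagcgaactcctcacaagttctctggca
Igtp (chr11:58199396-58199555, plus strand): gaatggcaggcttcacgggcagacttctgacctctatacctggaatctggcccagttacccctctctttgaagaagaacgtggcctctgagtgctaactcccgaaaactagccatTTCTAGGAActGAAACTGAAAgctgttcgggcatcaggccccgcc
Irf1 (chr11:53769854-53770013, plus strand): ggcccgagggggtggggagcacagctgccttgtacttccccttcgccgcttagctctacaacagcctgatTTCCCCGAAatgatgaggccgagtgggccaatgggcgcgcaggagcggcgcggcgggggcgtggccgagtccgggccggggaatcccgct
Ifit1, Ifit3 and Gbp2 carried the ISRE letters in the reverse orientation, and both Ifit genes carried them in 2 places. Isg15 had 3 overlapping copies in a row. Igtp held a GAS match just before an ISRE match, and Irf1 held a GAS match alone. Ifi207 and Ifi211, near each other on chromosome 1 in the same orientation, had 1 ISRE match each at nearly the same distance from the start.

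**Figure D1:**
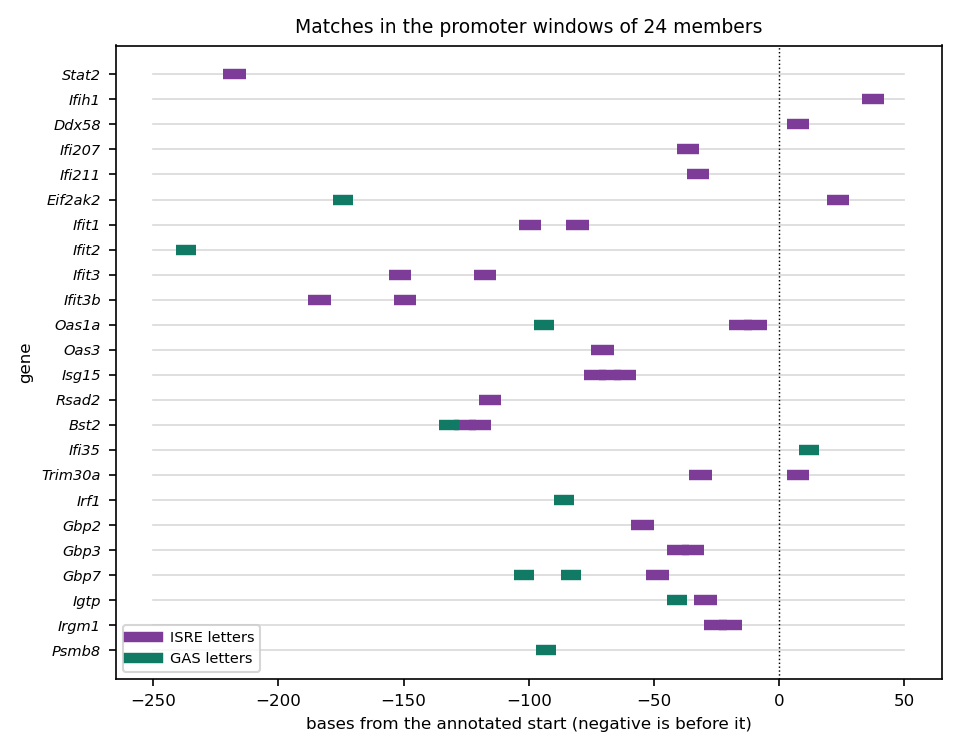
Position of each ISRE (purple) and GAS (green) match in the promoter windows of the members that had one, as bases from the RefSeq start (x axis), 1 gene per line. For 17 of the 20 members with an ISRE match, at least 1 match lay before the start.

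All 10 cardiomyocyte markers were measured in every group, as the heart label requires. The 11 hepatocyte markers summed to 43006 normalized counts in Vehicle TAC hearts, against 343 in Vehicle SHAM hearts in the same table, and their median log2 fold change of NR over Vehicle in TAC hearts was -8.43. Atrial markers had a median log2 fold change of 3.28 for TAC in NR hearts and adipocyte markers one of -2.44 for NR in sham hearts, so means of other tissues' markers differed between groups. No such marker was called in these comparisons. An unadjusted p below 0.05 in the authors' test was found for 6 of 11 hepatocyte markers with NR in TAC hearts and 3 of 6 atrial markers. No hepatocyte marker with TAC in vehicle hearts and no adipocyte marker with NR in sham hearts had one. For TAC in NR hearts 1 of 7 adipocyte markers had one, and for NR in TAC hearts 1 of 7. The part of these differences in the results below was not tested. In bulk tissue, fewer cells of a type and less RNA per cell cannot be told apart.

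Per kilobase of exon, members spanned a wide range of levels in Vehicle SHAM hearts. Iigp1, a GTPase induced by interferon-gamma that attacks the vacuoles of intracellular parasites, was highest at 451 normalized counts per kb, followed by Ifi27 at 358, Lgals3bp at 350 and Bst2 at 345. Oas3 was lowest at 0.999 per kb. After the 4 tables were placed on 1 scale, 37 members had a mean of at least 50 normalized counts in every group, and 2, Oas3 and Mx1, were under 10 in at least 1 group. All values below that are given for 4 groups are authors' means on that scale.

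The lowest of the 4 group means lay in NR SHAM hearts for 35 of 45 members. Among 19325 genes with a mean in all 4 groups, 28.8% were lowest there. Because the members were chosen with earlier results of these data known, this contrast is a description and not a test. The other members were lowest in Vehicle TAC hearts (Ifi207, Ifi211, Usp18, Mx2, Gbp7 and Iigp1), in NR TAC hearts (Igtp, Psmb9 and Tap1) or in Vehicle SHAM hearts (Eif2ak2). The 35 held 29 of 34 type I-like and 6 of 11 interferon-gamma-like members. The highest mean lay in NR TAC hearts for 9 members (21.8% of all genes), in Vehicle TAC hearts for 17 (31% of all genes), in NR SHAM hearts for 2 (26.4%) and in Vehicle SHAM hearts for 17 (20.8%). Summed over the type I-like members, the means came to 10490 in NR TAC, 10149 in Vehicle TAC, 8410 in NR SHAM and 10091 in Vehicle SHAM hearts. Interferon-gamma-like members summed to 5818 in NR TAC, 5412 in Vehicle TAC, 6280 in NR SHAM and 6224 in Vehicle SHAM hearts, so this class was not lowest in NR SHAM hearts by its sum. Iigp1 alone contributed most to that sum and was itself highest in NR SHAM hearts, at 3193. The sum of this class therefore follows Iigp1 and does not describe its other members.

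**Figure D2:**
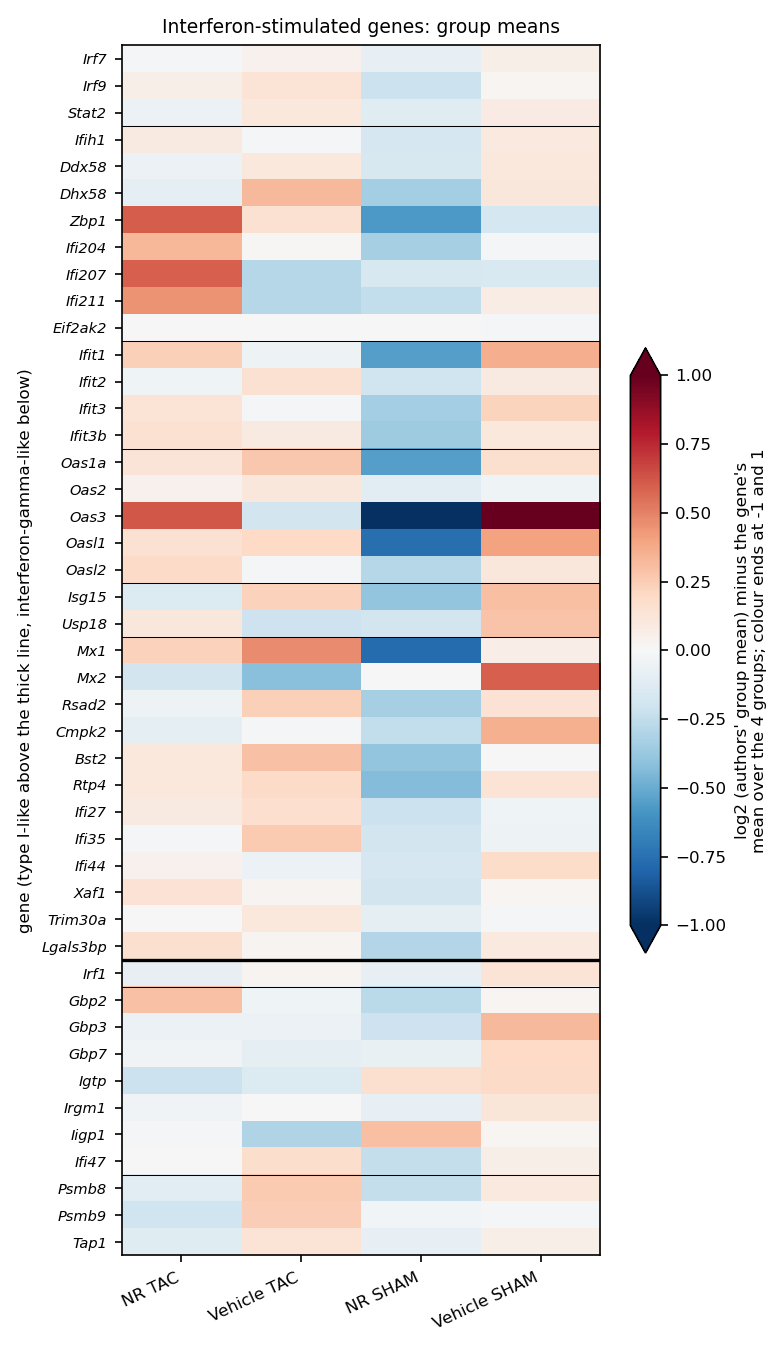
Authors' group means of the 45 members in the 4 groups (columns), as log2 of the mean minus the gene's own average over the 4 groups; red is higher, blue is lower, and colours end at -1 and 1. NR SHAM hearts are blue for most type I-like members, while Iigp1 and Igtp run the other way.

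In sham hearts, nearly every member had a lower mean with NR than with vehicle, and none was called. The authors' deposited table had a log2 fold change below 0 for 43 of 45 members, against 49.8% of 19917 genes. The median was -0.38 over the type I-like members, 33 of 34 being lower, and -0.22 over the interferon-gamma-like members, 10 of 11 being lower, while the median of all genes was 0.00. No member was called at an adjusted p below 0.05, and no gene of that table was (0%). At an unadjusted p below 0.05, 4 members were lower and none higher, 8.89% of the members against 1.88% of all genes, of which 1.08% were lower.

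Ifit1, which binds viral RNA lacking a host cap, averaged 166 in NR TAC, 135 in Vehicle TAC, 95.9 in NR SHAM and 181 in Vehicle SHAM hearts. Its log2 fold change for NR in sham hearts was -0.91 in the authors' deposited table, with an approximate SE of 0.63 taken back from the p of 0.144. Ifit3, its partner protein, had 177 in NR TAC, 159 in Vehicle TAC, 127 in NR SHAM and 188 in Vehicle SHAM hearts. Both Ifit genes thus had the same order of groups, with NR SHAM hearts lowest and Vehicle SHAM hearts highest, and neither passed the test. Of the 50-base stretches of exon in Ifit3, 51.2% also occur in Ifit3b, so the values of Ifit3 and Ifit3b may share reads. Oasl1, a member of the oligoadenylate synthetase family that restrains Irf7 translation in mice, averaged 45.8 in NR TAC, 47.4 in Vehicle TAC, 24.4 in NR SHAM and 54.5 in Vehicle SHAM hearts. The authors' deposited table gave Oasl1 a log2 fold change of -1.13 for NR in sham hearts (approximate SE 0.51, p = 0.027, adjusted p = 1). Oas3, an enzyme that makes the messenger which activates RNase L, averaged 4.95 in NR TAC, 2.84 in Vehicle TAC, 1.08 in NR SHAM and 7.06 in Vehicle SHAM hearts, with an unadjusted p of 0.0379 in the authors' deposited table.

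Bst2, or tetherin, which holds budding virus at the cell surface, averaged 335 in NR TAC, 382 in Vehicle TAC, 237 in NR SHAM and 312 in Vehicle SHAM hearts. For NR in sham hearts its log2 fold change was -0.39 in the authors' deposited table (approximate SE 0.17, p = 0.0232, adjusted p = 1). Rtp4, which restrains the type I response in mice, had 208 in NR TAC, 220.1 in Vehicle TAC, 142 in NR SHAM and 212 in Vehicle SHAM hearts. The authors' deposited table gave Rtp4 a log2 fold change of -0.57 for NR in sham hearts (approximate SE 0.28, p = 0.0416, adjusted p = 1). For Rtp4 NR SHAM hearts stood apart and the other 3 groups lay closer together. For Bst2 NR SHAM hearts were lowest too, but the other 3 groups were themselves spread, from 312 to 382. Isg15, the ubiquitin-like modifier, averaged 33.9 in NR TAC, 43.9 in Vehicle TAC, 28.4 in NR SHAM and 46.0 in Vehicle SHAM hearts. Rsad2, or viperin, which makes a chain-terminating nucleotide, had 205 in NR TAC, 250.1 in Vehicle TAC, 169 in NR SHAM and 235 in Vehicle SHAM hearts. Cmpk2, its genomic neighbour that makes nucleotide precursors, had 185 in NR TAC, 197 in Vehicle TAC, 167 in NR SHAM and 253 in Vehicle SHAM hearts. All 5 of these genes were lowest in NR SHAM hearts, with the spread over libraries not known.

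The factors that drive the type I-like genes lay close together across the groups. Irf7, the amplifier of type I interferon transcription, averaged 234 in NR TAC, 245 in Vehicle TAC, 225 in NR SHAM and 248 in Vehicle SHAM hearts. Irf9 had 469 in NR TAC, 495 in Vehicle TAC, 389 in NR SHAM and 456 in Vehicle SHAM hearts. Stat2 had 519 in NR TAC, 583 in Vehicle TAC, 498 in NR SHAM and 573 in Vehicle SHAM hearts. NR SHAM hearts were lowest for all 3 factors. Their log2 fold changes for NR in sham hearts lay at -0.14, -0.23 and -0.20 in the authors' deposited table, in that order, and no p was below 0.05. Some type I-like genes hardly differed. Eif2ak2, the kinase PKR that stops translation on sensing double-stranded RNA, had 718 in NR TAC, 719 in Vehicle TAC, 719 in NR SHAM and 710.3 in Vehicle SHAM hearts. Oas2, another oligoadenylate synthetase, had 164 in NR TAC, 173 in Vehicle TAC, 148 in NR SHAM and 154 in Vehicle SHAM hearts.

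The remaining members kept the same sign without a p below 0.05 in either comparison that involves NR SHAM hearts. They are the RNA sensor genes Ifih1 and Ddx58, the nucleic acid sensor gene Zbp1, Ifit2, Ifit3b, Oas1a, Oasl2, Usp18, Mx1, Ifi27, Ifi35, Ifi44, Xaf1, Trim30a, Lgals3bp, Gbp3, Gbp7 and Ifi47. In the authors' deposited table for NR in sham hearts their log2 fold changes ran between -0.74 for Mx1 and -0.07 for Trim30a. In the authors' deposited table for TAC in NR hearts they ran between 0.04 for Gbp7 and 1.12 for Zbp1, whose means were only 27.1 in NR TAC and 11.9 in NR SHAM hearts. Of the 50-base stretches of exon, 45.0% in Ifit3b and 57.6% in Oas1a also occur in another gene, so their values may share reads with it.

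Cell markers had different means in this comparison as well, none of them called. All 10 fibroblast markers were lower in NR SHAM than in Vehicle SHAM hearts (median log2 fold change of -0.22, summed level 87960 in NR SHAM and 100175 in Vehicle SHAM hearts). Of 12 macrophage markers, 11 were lower (median of -0.08, summed level 9577 in NR SHAM and 10215 in Vehicle SHAM hearts), and of 10 endothelial markers 8 were lower (median of -0.06). Lower too were 7 of 10 measured T and NK cell markers (median of -0.43), none with a mean of at least 50, and 6 of 7 B cell markers (median of -0.40). The same held for 6 of 9 dendritic markers (median of -0.13), all 6 atrial markers (median of -0.91) and all 6 measured adipocyte markers (median of -2.44). In contrast, 5 of 9 measured monocyte and neutrophil markers (median of 0.12), 6 of 10 cardiomyocyte markers (median of 0.04) and all 11 hepatocyte markers (median of 1.42) were higher. The part of these cells in the lower interferon-stimulated levels was not tested.

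**Figure D3:**
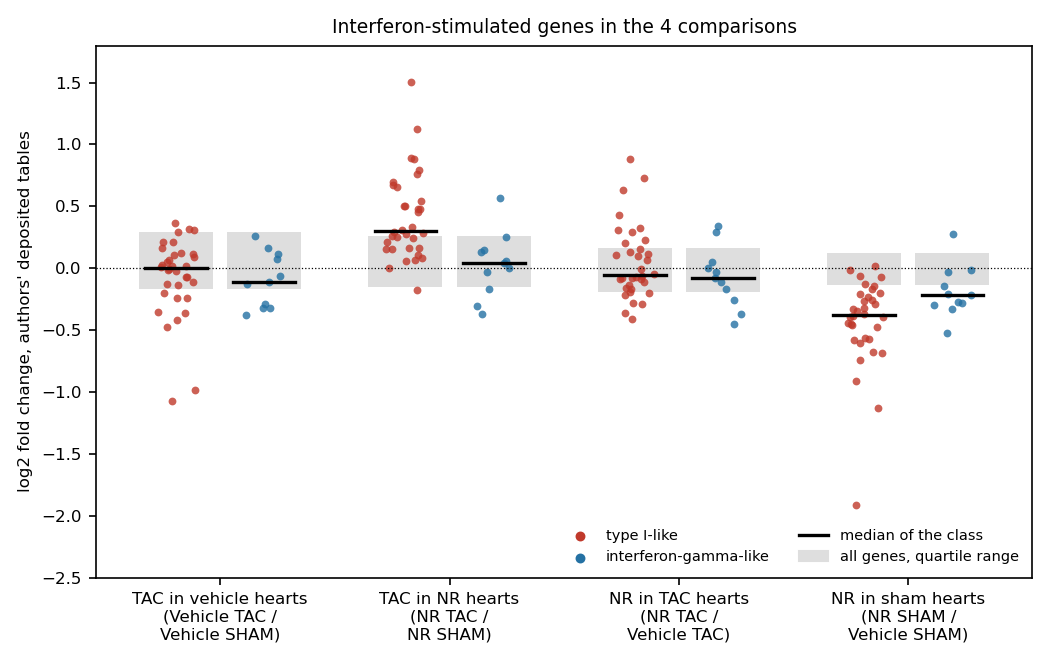
Log2 fold change of each member in the authors' 4 deposited tables (y axis), type I-like in red and interferon-gamma-like in blue, with the class median as a black bar and the quartile range of all genes in grey. Red points lie above 0 for TAC in NR hearts (33 of 34) and below 0 for NR in sham hearts (33 of 34); these comparisons share the NR SHAM libraries.

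With TAC in NR hearts 1 member, Ifi204, rose by the authors' test, and 40 of 45 members had a higher mean in NR TAC than in NR SHAM hearts. The called member made up 2.22% of the set, where 0.549% of all 20946 genes were called and 0.306% were called as higher. The median log2 fold change was 0.30 over the type I-like members, with 33 of 34 higher, and 0.04 over the interferon-gamma-like members, with 7 of 11 higher. Over all genes the median was 0.02 and 53.2% were higher. At an unadjusted p below 0.05 there were 4 higher members (3.52% of all genes were) and 2 lower members (3.45% of all genes were), together 13.3% of the set against 6.98% of genes. NR SHAM hearts are the denominator here and the numerator of the comparison of NR in sham hearts. The shift of the set in both comparisons thus rests largely on the same low NR SHAM means, and neither is separate evidence for the other. Single members differ: Ifi204, Ifi207 and Ifi211 had their highest means in NR TAC hearts. Ifi207 had 545 in NR SHAM and 549 in Vehicle SHAM hearts.

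Ifi204, a nuclear protein of the Ifi200 family that binds DNA and signals to STING in mouse macrophages, averaged 527 in NR TAC, 420.0 in Vehicle TAC, 331 in NR SHAM and 415 in Vehicle SHAM hearts. NR TAC hearts stood above the other 3 groups and NR SHAM hearts below them. The authors' deposited table gave Ifi204 a log2 fold change of 0.67 for TAC in NR hearts (approximate SE 0.18, p = 0.000169, adjusted p = 0.0368), and one of 0.02 for TAC in vehicle hearts (p = 0.868). Ifi207 and Ifi211, of the same family, had log2 fold changes of 0.76 (p = 0.00641, adjusted p = 0.309) and 0.69 (p = 0.00132, adjusted p = 0.129) for TAC in NR hearts in the authors' deposited table. In the authors' deposited table Oasl1 had 0.88 for the same comparison (approximate SE 0.34, p = 0.01, adjusted p = 0.382). None of these 3 was called.

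Igtp and Iigp1, immunity-related GTPases of the interferon-gamma-like class, had lower means in TAC hearts. Igtp, which guards host membranes against intracellular pathogens, averaged 324 in NR TAC, 342 in Vehicle TAC, 419 in NR SHAM and 428 in Vehicle SHAM hearts. TAC hearts were thus lower than sham hearts with either treatment, with log2 fold changes of -0.37 in NR hearts (p = 0.0294, adjusted p = 0.588) and -0.32 in vehicle hearts (p = 0.116) in the authors' deposited tables, which share no library for these comparisons. Iigp1 averaged 2578 in NR TAC, 2107 in Vehicle TAC, 3193 in NR SHAM and 2629 in Vehicle SHAM hearts, with log2 fold changes for TAC of -0.30 in NR hearts (p = 0.0318, adjusted p = 0.609) and -0.32 in vehicle hearts (p = 0.106) in the authors' deposited tables. Iigp1 was the member whose mean was higher with NR in both TAC and sham hearts (log2 fold changes of 0.29 and 0.28 in the authors' deposited tables, p = 0.113 and 0.0548). Irgm1, which regulates the other GTPases, differed less, with 588 in NR TAC, 599 in Vehicle TAC, 568 in NR SHAM and 656 in Vehicle SHAM hearts.

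Markers of other cells had different means with TAC as well, none of them called. All 12 macrophage markers were higher in NR TAC than in NR SHAM hearts (median log2 fold change of 0.49, summed level 16042 in NR TAC and 9907 in NR SHAM hearts), and all 10 monocyte and neutrophil markers were (median of 1.23, summed level 981 in NR TAC and 492 in NR SHAM hearts). Among 9 dendritic markers, of which Bst2 is also a member, 6 were higher (median of 0.39), as were 7 of 10 measured T and NK cell markers (median of 0.27) and 4 of 7 B cell markers (median of 0.04). All 10 fibroblast markers (median of 0.38, summed level 121741 in NR TAC and 90989 in NR SHAM hearts) and all 7 adipocyte markers (median of 1.36) were higher, and 8 of 10 cardiomyocyte markers were lower (median of -0.17). In vehicle hearts 11 of 12 macrophage markers (median of 0.62, summed level 16042 in Vehicle TAC and 11089 in Vehicle SHAM hearts) and all 10 monocyte and neutrophil markers (median of 1.64) were higher, with 7 of 10 fibroblast markers (median of 0.36), 7 of 9 dendritic markers (median of 0.19), 8 of 10 measured T and NK cell markers (median of 0.48) and 4 of 7 B cell markers (median of 0.10), while all 6 measured adipocyte markers were lower (median of -2.07). The part of these cells in the members' values was not tested.

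With TAC in vehicle hearts the set was divided in direction. In the authors' deposited table, a log2 fold change above 0 was found for 21 of 45 members, against 51.9% of 20540 genes, with medians of 0.00 over the type I-like members (17 of 34 higher) and -0.11 over the interferon-gamma-like members (4 of 11 higher). No member was called, and 10 genes (0.0487%) were. Mx2, a dynamin-like GTPase, was the member with an unadjusted p below 0.05, where 4.89% of all genes had one and 2.12% were lower. It averaged 31.5 in NR TAC, 26.8 in Vehicle TAC, 35.8 in NR SHAM and 54.0 in Vehicle SHAM hearts, and the authors' deposited table gave a log2 fold change of -0.99 for TAC in vehicle hearts (approximate SE 0.40, p = 0.0133, adjusted p = 0.846). Among members with a mean of at least 50, the highest were Ifi35 at 0.31, Bst2 at 0.29 and Psmb9 at 0.26, and the lowest Usp18 at -0.48, Ifit1 at -0.42 and Gbp3 at -0.38, all as log2 fold changes in the authors' deposited table and all with p above 0.05. Usp18 takes ISG15 off proteins and blocks the IFNAR receptor.

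Across the members, TAC changes in NR hearts and TAC changes in vehicle hearts, which share no library, are set side by side here. As a description over 45 genes, whose values in each comparison come from the same libraries, Pearson's r was -0.08 and Spearman's rho 0.04, against an r of 0.08 and a rho of 0.37 over 19772 genes. Higher with TAC in NR hearts and lower in vehicle hearts were 21 members (46.7%), against 17.9% of those genes. The set held 40 members higher in NR hearts and 24 lower in vehicle hearts. A count of this size follows from these shifts and is not separate evidence that the 2 TAC responses differ.

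**Figure D4:**
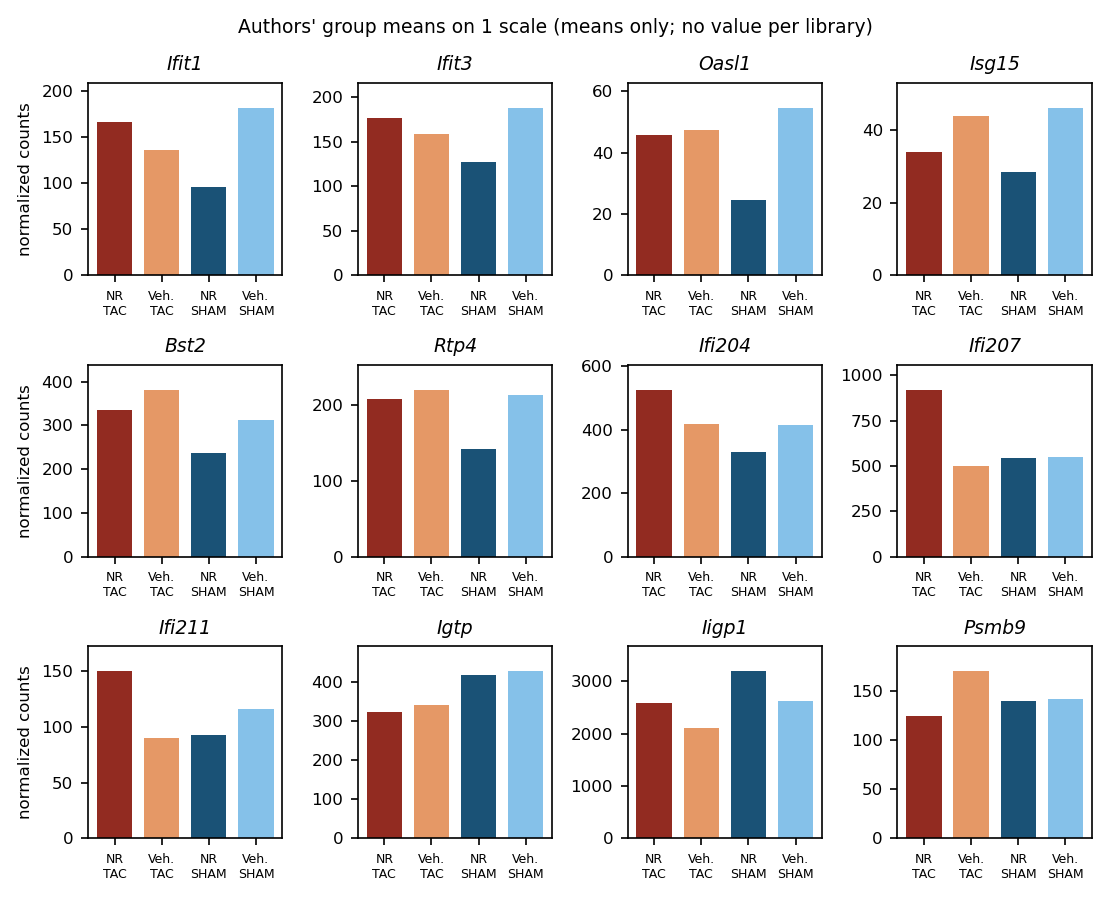
Authors' group means (bars, normalized counts on 1 scale, each axis from 0) of 12 members in NR TAC, Vehicle TAC, NR SHAM and Vehicle SHAM hearts; no error can be drawn because the tables hold means only. Ifit1, Oasl1, Bst2 and Rtp4 are lowest in NR SHAM hearts, Ifi204, Ifi207 and Ifi211 are highest in NR TAC hearts, and Igtp is lower in both TAC groups.

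NR in TAC hearts gave few differences from vehicle. Of 45 members 18 had a log2 fold change above 0 in the authors' deposited table, against 49.7% of 21420 genes, and the medians were -0.06 over the type I-like and -0.08 over the interferon-gamma-like members. No member and no gene (0%) was called. Only Ifi207 and Ifi211 had an unadjusted p below 0.05 (2.61% of genes had one), and both were higher in NR TAC hearts, as were 0.882% of genes.

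Ifi207 (chr1:173723427-173741747, minus strand), an Ifi200 protein whose close relatives bind DNA and act on transcription, averaged 921 in NR TAC, 498 in Vehicle TAC, 545 in NR SHAM and 549 in Vehicle SHAM hearts. One group, NR TAC, stood apart and the other 3 lay close together. In the authors' deposited table for NR in TAC hearts its log2 fold change was 0.89 (approximate SE 0.28, p = 0.00149, adjusted p = 1). Ifi211 (chr1:173896345-173913046, minus strand) averaged 150.3 in NR TAC, 90.6 in Vehicle TAC, 92.9 in NR SHAM and 116 in Vehicle SHAM hearts. Its log2 fold change for NR in TAC hearts was 0.73 in the authors' deposited table (approximate SE 0.25, p = 0.00369, adjusted p = 1). Ifi204 lies between them on the chromosome (chr1:173747293-173766943, minus strand) and had 0.33 (p = 0.118) in the authors' deposited table. These coordinates are from the GENCODE M21 annotation of GRCm38, and the values of the 3 genes may share reads: of their 50-base stretches of exon, 72.8% in Ifi211, 20.0% in Ifi204 and 7.29% in Ifi207 also occur in another gene, in Ifi211 mostly in Ifi205.

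Among members with a mean of at least 50, the lowest log2 fold changes for NR in TAC hearts were those of Psmb9, Dhx58 and Psmb8. Psmb9, a catalytic subunit of the immunoproteasome, averaged 125 in NR TAC, 171 in Vehicle TAC, 141 in NR SHAM and 142 in Vehicle SHAM hearts, with a log2 fold change of -0.45 for NR in TAC hearts in the authors' deposited table (approximate SE 0.23, p = 0.0545, adjusted p = 1). Psmb8, its partner subunit, had 136 in NR TAC, 177 in Vehicle TAC, 125 in NR SHAM and 157 in Vehicle SHAM hearts. Tap1, which carries peptides into the endoplasmic reticulum, had 228 in NR TAC, 272 in Vehicle TAC, 234 in NR SHAM and 258 in Vehicle SHAM hearts. All 3 were highest in Vehicle TAC hearts, the group with the high hepatocyte markers, and none passed the test. Of all genes 31% were highest in that group, and the part of other tissues in these 3 genes was not tested. Dhx58, or LGP2, a regulator of the RNA sensors, had a log2 fold change of -0.41 (p = 0.435) in the authors' deposited table.

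Among the remaining interferon-gamma-like members, Irf1, a transcription factor induced by interferon-gamma, averaged 535 in NR TAC, 577 in Vehicle TAC, 535 in NR SHAM and 622 in Vehicle SHAM hearts. Gbp2, a guanylate-binding protein that coats intracellular pathogens, had 609 in NR TAC, 481 in Vehicle TAC, 413 in NR SHAM and 502 in Vehicle SHAM hearts. Like Ifi204, and unlike Igtp and Iigp1, it was highest in NR TAC and lowest in NR SHAM hearts, and its largest log2 fold change in the authors' deposited tables was 0.57 for TAC in NR hearts (p = 0.159). The class therefore held members with unlike orders of groups.

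The change with NR was set against surgery directly, as the log2 fold change of NR in TAC hearts minus that in sham hearts, from tables that share no library. Of 44 members with a usable error, 37 had a positive difference, with a median of 0.32, while 50.3% of 18474 genes were positive and their median was 0.00. The change in sham hearts, which is subtracted here, was below 0 for 43 of 45 members. In TAC hearts the median change with NR was -0.07. The count of positive differences therefore largely repeats the low NR SHAM means and is not separate evidence. No gene was called after Benjamini-Hochberg adjustment (0%), and 2 members had an unadjusted p below 0.05, against 1.21% of genes. These were Ifi211, with a difference of 1.04 ± 0.34 (approximate SE, z test on the authors' deposited tables, p = 0.00217), and Ifi207, with 0.90 ± 0.30 (p = 0.00282). Through the TAC comparisons in the authors' deposited tables, the same difference had 2 members below 0.05, against 0.842% of genes. In the authors' deposited tables these were Ifi204 at 0.66 ± 0.20 (z test, p = 0.00132) and Ifi211 at 1.05 ± 0.36 (z test, p = 0.00383). Ifi207 was at 0.90 ± 0.47 in the authors' deposited tables (z test, p = 0.0573). Through NR in TAC and in sham hearts, Ifi204 was at 0.65 ± 0.34 in the authors' deposited tables (z test, p = 0.0533). Ifi204 thus passed 0.05 through the TAC comparisons only. Its error there includes an approximate SE of 0.099, taken back from p = 0.868 in the authors' deposited table for TAC in vehicle hearts. Ifi207 passed 0.05 through NR in TAC and in sham hearts only. The error of Ifi207 there likewise includes an approximate SE of 0.11, from p = 0.922 in the authors' deposited table for NR in sham hearts. From the authors' deposited tables of NR in TAC and in sham hearts, the difference for Ifit1 was 1.21 ± 0.78 (p = 0.122) and for Oasl1 1.08 ± 0.66 (p = 0.102), both larger than for Ifi207 but with wider errors. Iigp1 had a difference of 0.01 ± 0.23.

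**Figure D5:**
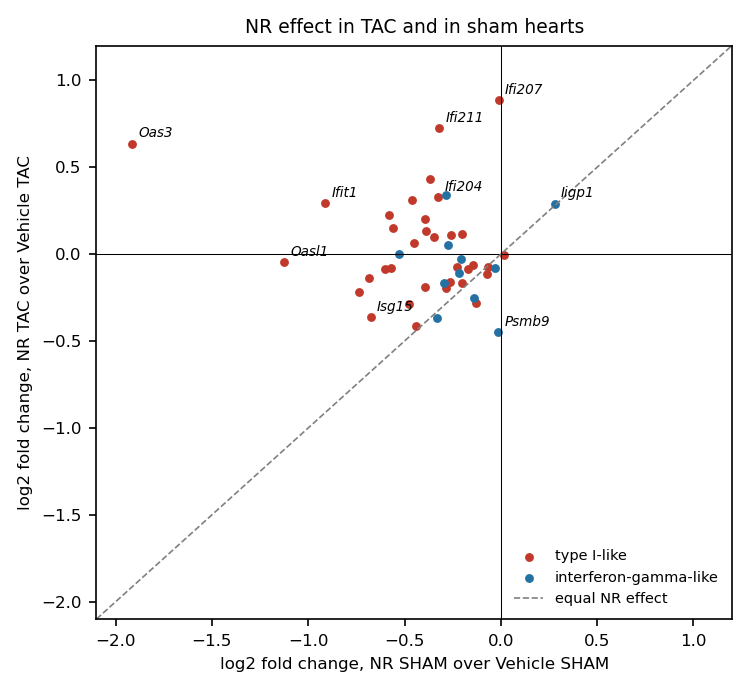
Log2 fold change of NR in TAC hearts (y axis) against NR in sham hearts (x axis) for the 45 members, type I-like in red and interferon-gamma-like in blue, with equal effects on the dashed line. Most points lie left of 0 and above the dashed line, Ifi207 and Ifi211 lie highest, and Iigp1 lies on the line at 0.29 in TAC and 0.28 in sham hearts.

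Upstream of the members, the receptors were measured in every group. Type I, type III and gamma interferon genes were not analysed here, Ifnb1 and Ifng among them. Of 9 receptor and kinase genes none was called in any table. Ifnar1 averaged 1332 in NR TAC, 1392 in Vehicle TAC, 1245 in NR SHAM and 1301 in Vehicle SHAM hearts, and Ifnar2 812 in NR TAC, 783 in Vehicle TAC, 767 in NR SHAM and 748 in Vehicle SHAM hearts. Ifngr1 had 2602 in NR TAC, 2481 in Vehicle TAC, 2088 in NR SHAM and 2038 in Vehicle SHAM hearts (p = 0.0189 and adjusted p = 0.504 for TAC in NR hearts in the authors' deposited table), while Ifngr2 had 8165 in NR TAC, 8397 in Vehicle TAC, 9605 in NR SHAM and 9705 in Vehicle SHAM hearts. Of the 9 receptor and kinase genes 6 had a higher mean with NR in sham hearts, with a median log2 fold change of 0.04.

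Sensors and their adaptors were 16 measured genes. In the authors' deposited table for TAC in NR hearts 14 of them had a higher mean (median log2 fold change of 0.20) and Tlr4, the receptor for bacterial lipopolysaccharide, was called (log2 fold change of 0.74, adjusted p = 0.0232). Tlr4 had 0.72 for TAC in vehicle hearts (p = 0.0619) in the authors' deposited table. For NR in sham hearts 14 of the 16 were lower, with a median of -0.12. Tlr8, an RNA receptor of phagocytes, and Ticam1, the adaptor of the toll-like receptors for double-stranded RNA and lipopolysaccharide, had log2 fold changes of 1.14 (p = 0.0156) and 0.33 (p = 0.034) for TAC in NR hearts in the authors' deposited table, without a call.

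Members with and without the ISRE letters were also described apart. For NR in sham hearts 19 of the 20 members with an ISRE match were lower (median log2 fold change of -0.30), as were all 15 with a window but no match (median of -0.28). For TAC in NR hearts 19 of 20 with a match were higher (median of 0.27) and 13 of 15 without one (median of 0.17). No test was run on these counts.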

How the data were processed

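Total RNA from 30 mg of mouse heart per library was extracted with a Qiagen kit and sequenced on a BGISEQ-500 instrument, per the labels. TopHat, HTSeq and DESeq on GRCm38 were used, without versions, per the submitters' processing notes. The 4 deposited tables hold signal columns, in which the authors give, for each group, the mean of its size-factor-normalized counts. The deposited fold is the ratio of these means, each plus 1, the deposited log2 value is its logarithm, and fold changes of low genes are therefore understated. Each deposited p-value comes from the authors' DESeq test and is adjusted over the genes of its table; a gene was called at an adjusted p below 0.05. Depth per library is not given, so no counting interval was formed.

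The 45 members, their classes and the pathway and marker lists were chosen with earlier results of these data known, so lists were described by counts and medians beside all genes and not tested. Genes with values in the text were those of a written rule: a fixed set of 16 members, members with an unadjusted p below 0.05 in any table, and the 3 highest and 3 lowest members of each table at a mean of at least 50, and from the pathway, other interferon-stimulated and cell lists the receptors, genes below 0.05 and the 2 highest and 2 lowest of a list. Not every non-member that this rule takes is printed: single cell markers and some genes of the other lists stand in their lists' counts, and 1 gene is not reported here. Tables were put on the scale of the Vehicle TAC and Vehicle SHAM table by median ratios of shared groups (1.09, 0.983 and 1.05). An approximate SE is the log2 value divided by the normal quantile that its p implies. The difference of the NR effect is a z test on these errors, two-sided, with Benjamini-Hochberg adjustment over 18474 genes. Its code was run on simulated data, which does not show that these errors hold for the deposited tables. The errors were uneven, at 0.0094 for Gbp3 with NR in TAC hearts and 3.39 for Isg15 with TAC in vehicle hearts. Shared sequence was counted as 50-base stretches of GENCODE M21 exons. Python 3.11.15, pandas 2.3.3, numpy 2.4.6, scipy 1.17.1 and matplotlib 3.10.9 were used. Other thresholds, pseudocounts, filters on low means, centring, scaling paths and subsets of members were tried.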

Additional observations from a re-analysis of the deposited data

How the results depend on the processing

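Ifi204 remained called for TAC in NR hearts after filters at means of 10 and 50 with p adjusted again, and 0 members were called at an adjusted p below 0.01. By unadjusted p below 0.05, the members counted were 6 for TAC in NR hearts, 4 for NR in sham hearts, 1 for TAC in vehicle hearts and 2 for NR in TAC hearts, against 1, 0, 0 and 0 by adjusted p. Class medians of the log2 fold change kept their sign in all 4 comparisons under pseudocounts of 0 and 10, filters at 10 and 50, centring, and without members that have close copies. For the type I-like members they lay between 0.26 and 0.30 for TAC in NR hearts and between -0.39 and -0.30 for NR in sham hearts. Without the 3 Ifi200 members, a subset chosen after seeing the data, these medians were 0.28 and -0.39. The 35 members lowest in NR SHAM hearts were the same under both other scalings, and among the 37 members at 50 or more in all groups 28 were lowest there (chosen after seeing the data). The difference of the NR effect had 0 called members under each alternative, including raised errors, also chosen later. With a pseudocount of 10, Oas3 had a log2 fold change of -0.59 for NR in sham hearts in place of -1.91. No paired analysis was possible because the tables hold group means only and library numbers are not shared between groups. Leaving out each replicate was not run for the same reason. Depth limits what can be said of the lowest members, Oas3 and Mx1, and cannot be given.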

Other observations

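Other genes of the Ifi200 cluster on chromosome 1, a list written after its values were seen, were uneven. Ifi202b averaged 219 in NR TAC, 182 in Vehicle TAC, 102 in NR SHAM and 149 in Vehicle SHAM hearts, and the authors' deposited table gave a log2 fold change of 1.11 for TAC in NR hearts (p = 0.000368, adjusted p = 0.0593). Ifi205 averaged 613 in NR TAC, 399.6 in Vehicle TAC, 439 in NR SHAM and 529 in Vehicle SHAM hearts, with log2 fold changes in the authors' deposited tables of 0.49 for TAC in NR hearts (p = 0.00381) and 0.62 for NR in TAC hearts (p = 0.0116). Ifi203, Mndal and Aim2, the last the DNA sensor of the inflammasome, lay between -0.07 and 0.19 for TAC in NR hearts and between -0.05 and 0.16 for NR in TAC hearts on the same log2 scale, in the authors' deposited tables. High values in NR TAC hearts were therefore found in some genes of the cluster and not in all of their neighbours. Over the whole list, with members of the set in it, 10 of 12 measured genes were higher for TAC in NR hearts, against 53.2% of all genes. Their median log2 fold change was 0.58. For NR in TAC hearts 8 of 13 were higher, against 49.7% of all genes, with a median of 0.02. None of the non-members in the cluster was called.

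Of the guanylate-binding proteins outside the set, Gbp10 averaged 39.8 in NR TAC, 26.8 in Vehicle TAC, 75.8 in NR SHAM and 30.6 in Vehicle SHAM hearts. The authors' deposited table for NR in sham hearts gave it a log2 fold change of 1.28 (p = 5.37e-05, adjusted p = 1), against the direction of the set. Gbp6 had 0.71 there (p = 0.0328) and Gbp5 had -0.44 (p = 0.0311), in the authors' deposited table, and neither was called. Gbp5 also had -0.68 for TAC in vehicle hearts (p = 0.00348), and Gbp10 had -0.91 for TAC in NR hearts (p = 0.00133), in the authors' deposited tables. Class II antigen presentation genes had their highest means in Vehicle TAC hearts, with log2 fold changes for TAC in vehicle hearts of 0.85 for H2-Aa and 0.84 for Cd74 in the authors' deposited table (p = 0.237 and 0.246). The chemokine gene Cxcl9, induced by interferon-gamma, had -0.79 in the authors' deposited table for TAC in vehicle hearts (p = 0.00781, adjusted p = 0.729). Outside the set, Lgals9, a galectin, had -0.42 for NR in sham hearts (p = 0.00836), the chemokine gene Ccl5 had 1.69 there (p = 0.0335) and means of 16.3 in Vehicle TAC and 2.76 in Vehicle SHAM hearts (p = 0.0103), and Herc6 and Slfn2 had 0.56 each for TAC in NR hearts (p = 0.0155 and 0.0226), as log2 fold changes in the authors' deposited tables without a call. Gm12250, another immunity-related GTPase, had -0.74 for TAC in NR hearts (p = 0.0468) and -0.79 in vehicle hearts (p = 0.031) in the authors' deposited tables. Icam1, an adhesion molecule, had -0.43 for NR in sham hearts (p = 0.0218), and Ciita, the class II activator, and Apol9a had 0.80 (p = 0.0222) and 1.78 (p = 0.0316) for TAC in vehicle hearts, again in the authors' deposited tables without a call. A further 34 type I-like genes outside the set had medians of 0.16 for TAC in NR hearts (24 higher) and -0.17 for NR in sham hearts (24 lower). These shifts were smaller than those of the 34 type I-like members, at 0.30 (33 higher) and -0.38 (33 lower). A further 32 interferon-gamma-like genes had medians of 0.08 (19 higher) and -0.10 (25 lower) in the same comparisons. None of these 66 genes was called in either table.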
